A study of Mus musculus with 6 samples.

Results

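The regions described here are stretches of open chromatin that lie far from genes in astrocytes of the mouse primary visual cortex (V1). All ATAC-seq peaks of the study were merged into regions wherever they shared at least 1 bp, and a region was kept when at least 2 of the 6 peak lists had a peak in it. A region counted as a gene-desert region when its midpoint lay in no protein-coding gene body and more than 100 kb from the nearest protein-coding transcription start site (TSS) of the GENCODE annotation of mm10. In all, 17873 of 140360 regions (12.7%) met this rule. The other regions fell into promoters, within 1 kb of a TSS (13855 regions), other positions inside genes (75481, called genic distal), intergenic positions 1 to 10 kb from a TSS (7116) and intergenic positions 10 to 100 kb from a TSS (26035). The rule uses position and the presence of peaks in any 2 lists, and no difference between the conditions.

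The study removed the glucocorticoid receptor (GR, encoded by Nr3c1) from V1 astrocytes and profiled their chromatin at P21. All mice of both groups carried the floxed receptor alleles (GRfl/fl) and received an adeno-associated virus (AAV2/5, with the 4x6T element) at P0-P1. In GR-KO mice (3 libraries) the virus expressed Cre recombinase and EGFP-KASH. In GR-con mice (3 libraries) it had ΔCre in place of Cre. The GfaABC1D promoter, a short astrocyte promoter from the human GFAP gene, drives both transgenes, and EGFP-KASH labels the nuclear membrane of infected cells. Each library was made from sorted GFP+ nuclei of V1 tissue pooled from several mice, so the libraries are biological replicates of pools and do not show the spread between single mice.

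Gene deserts are long intergenic stretches that often flank genes for developmental regulators and cell adhesion molecules, and they are known to hold enhancers that act on a promoter far away. Open chromatin at such a place can mark an enhancer, the start of a long non-coding RNA (lncRNA) or a binding site of CTCF, the zinc-finger protein that anchors chromatin loops. GR is a hormone-activated nuclear receptor that binds DNA mostly at distal sites, as a dimer on a palindromic element, and it often opens or stabilises open chromatin there. NFI proteins, which bind the half-site TTGGCA and its palindrome, are central transcription factors of astrocyte differentiation.

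Sequences of 7 called regions are given first, chosen because they hold the motifs described further on. Of the called members, 15 of 63 lower ones hold the GR palindrome and 11 of 47 higher ones hold both motifs of the second set. Each one printed is the reference sequence (mm10, GRCm38.p6, plus strand, 201 bp) centred on the summit of the strongest peak in a gene-desert region, and is named by the genes on either side. The first 4 regions were lower in GR-KO and hold the GR palindrome, written as GNACA and TGTNC with 3 bases between them, which is shown in capitals.
Prickle1 to Adamts20, chr15:94013310-94013510: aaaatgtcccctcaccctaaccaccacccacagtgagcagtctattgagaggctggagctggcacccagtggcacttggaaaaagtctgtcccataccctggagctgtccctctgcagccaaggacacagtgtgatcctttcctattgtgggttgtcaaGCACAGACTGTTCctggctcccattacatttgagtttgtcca
Pdzrn4 to Gxylt1, chr15:92946372-92946572: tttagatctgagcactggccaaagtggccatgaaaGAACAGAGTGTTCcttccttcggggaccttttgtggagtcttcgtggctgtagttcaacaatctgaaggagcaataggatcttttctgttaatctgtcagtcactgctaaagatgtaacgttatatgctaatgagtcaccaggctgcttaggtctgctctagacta
Pik3r1 to Cd180, chr13:102012017-102012217: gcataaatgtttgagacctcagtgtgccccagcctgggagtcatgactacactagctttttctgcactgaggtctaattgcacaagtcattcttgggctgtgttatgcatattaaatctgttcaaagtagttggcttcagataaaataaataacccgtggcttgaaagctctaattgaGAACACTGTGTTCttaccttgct
Clnk to Hs3st1, chr5:39260900-39261100: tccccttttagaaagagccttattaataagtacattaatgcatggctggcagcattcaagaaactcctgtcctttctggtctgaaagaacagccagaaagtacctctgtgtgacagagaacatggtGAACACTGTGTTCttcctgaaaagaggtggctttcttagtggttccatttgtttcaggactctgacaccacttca

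The next 3 regions were higher in GR-KO and hold both the NFI half-site TTGGCA and the 6-mer ACTGTA on either strand, both shown in capitals. The 6-mer was chosen because it is known to be frequent at sites higher in GR-KO in these same libraries, so its presence here is not independent evidence.
Fam181b to Tenm4, chr7:95000930-95001130: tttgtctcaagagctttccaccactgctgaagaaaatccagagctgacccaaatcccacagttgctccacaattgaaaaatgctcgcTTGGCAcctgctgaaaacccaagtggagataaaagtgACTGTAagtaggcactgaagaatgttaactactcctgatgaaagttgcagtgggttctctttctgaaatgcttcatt
Rnf152 to Pign, chr1:105487106-105487306: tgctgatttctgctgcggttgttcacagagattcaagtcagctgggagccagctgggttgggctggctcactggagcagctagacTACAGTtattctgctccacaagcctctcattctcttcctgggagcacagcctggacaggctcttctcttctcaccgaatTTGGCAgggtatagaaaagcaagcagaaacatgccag
Kcnt2 to Cdc73, chr1:140900571-140900771: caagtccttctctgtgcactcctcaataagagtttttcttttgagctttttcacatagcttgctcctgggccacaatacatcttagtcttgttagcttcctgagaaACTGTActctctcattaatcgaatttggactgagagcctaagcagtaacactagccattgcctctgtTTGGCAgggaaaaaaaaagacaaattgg

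For each peak the deposited lists give a fold enrichment, the height of the signal at the summit over the local background of that library, which is not on a scale shared between libraries. The lists hold 179462 to 198929 peaks, and depth is unknown because they carry no read counts. As a check of the labelled cell type, 26 of 30 astrocyte genes had a promoter peak in all 6 libraries, and Aldh1l1, Aqp4 and Fam107a had no promoter region. A promoter peak in all 6 libraries was also present for 6 of 14 neuron markers, 3 of 10 microglia markers, 4 of 10 oligodendrocyte lineage markers and 5 of 10 vascular markers. In all, 8 of 14 neuron, 4 of 10 microglia, 5 of 10 oligodendrocyte lineage and 6 of 10 vascular markers had a promoter region. Cx3cr1, C1qa, Slc17a7, Gad1, Mog and Pecam1 were among the others. Of 13 regions in the body of Nr3c1, the targeted gene, 1 was lower and 1 higher in GR-KO, and whether they touch the floxed segment was not examined. At the lower one (chr18:39428001-39428701) GR-con libraries had folds of 17.4, 17.4 and 14.3 and GR-KO libraries 6.68, 4.73 and 6.36, without overlap. At the higher one (chr18:39460905-39461162) no GR-con library had a peak, and GR-KO libraries had folds of 6.24, 4.76 and 6.39.

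Gene-desert regions were sparse, and the share of them with a peak in a given library was below that of promoters and of intergenic regions at 10 to 100 kb. Gene-desert sequence made up 32.8% of the genome (assembled bases) and held 20.6 regions per Mb, against 45.3 per Mb at 10 to 100 kb from a TSS, 74.3 in genes away from promoters and 335 at promoters. The share of the 17873 regions with a peak was 83.8%, 82.3% and 84.1% in GR-con 1, 2 and 3 and 82.6%, 79.8% and 80.6% in GR-KO 1, 2 and 3. In every library this share was below that at 10 to 100 kb from a TSS.

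The difference in this share between gene-desert regions and intergenic regions at 10 to 100 kb was -2.91 ± 0.572 percentage points (mean and SD of 6 libraries), and it was negative in 6 of 6 libraries. Against promoters the difference was -13.2 ± 1.35 percentage points. Against genic distal regions it was 0.446 ± 1.12 percentage points, with the gene-desert share higher in 3 of 6 libraries. Regions of every class were kept by their peaks in these same lists, so these differences are given as a description without a test. Their size moved with that filter. With a peak in 3 or more lists they were -1.96 against intergenic regions at 10 to 100 kb, -8.00 against promoters and -0.0961 against genic distal regions. Between the conditions, the share of gene-desert regions with a peak averaged 83.4% ± 0.977 (SD, n = 3) for GR-con libraries and 81.0% ± 1.44 (SD, n = 3) for GR-KO libraries (exact permutation test, p = 0.2, where the smallest p possible is 0.1). Over all regions the shares were 85.2% and 82.8%, so the gap between the conditions had a like size in gene deserts (-2.36 percentage points) and in all regions (-2.38).

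**Figure D1:**
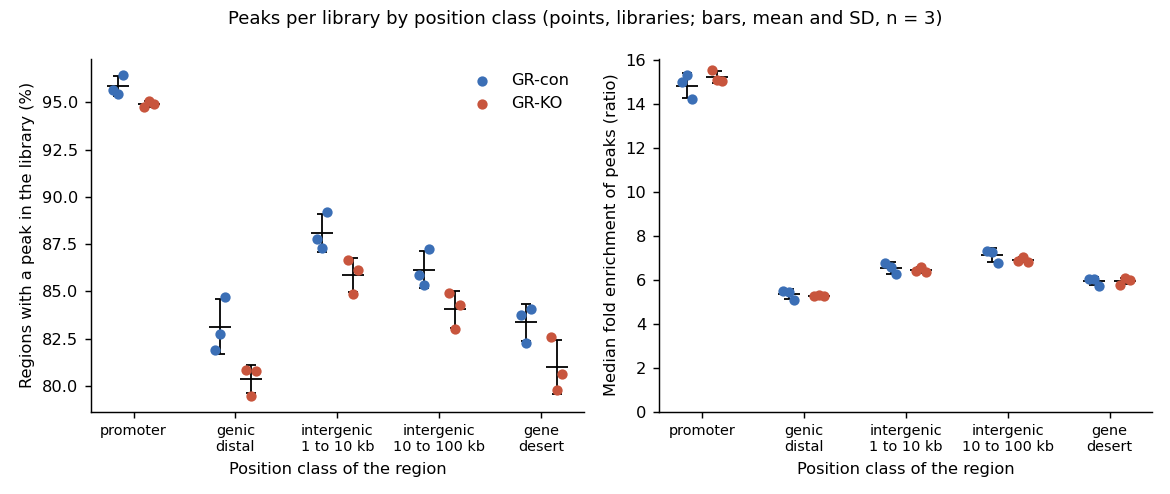
The left panel plots the share of regions with a peak in each library (percent, axis not starting at 0) and the right panel the median fold enrichment of peaks (ratio over local background) for 5 position classes, with points for libraries, GR-con in blue and GR-KO in red, and bars for the mean and SD of 3 libraries. In gene deserts 79.8% to 84.1% of regions had a peak, below promoters in every library, and the median fold was 5.73 to 6.06.

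Regions farther from genes had a peak in all 6 libraries in a smaller share of cases, which is given as a description without a test. The distance of a gene-desert region to the nearest protein-coding TSS ran from 100009 to 2618085 bp with a median of 219384 bp, and 355 regions (1.99%) lay more than 1 Mb away. A peak in all 6 libraries was present in 62.1% of regions at 100 to 200 kb, 59.1% at 200 to 500 kb, 56.4% at 500 to 1000 kb and 53.0% beyond 1 Mb. For comparison, it was 67.2% at 10 to 50 kb and 64.5% at 50 to 100 kb. Just inside the limit, at 100 to 110 kb, 62.9% of 1171 regions had a peak in all 6 libraries, and just outside it, at 90 to 100 kb, 66.6% of 1322 did. Of all members, 14029 (78.5%) were also more than 100 kb from every protein-coding gene body.

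**Figure D2:**
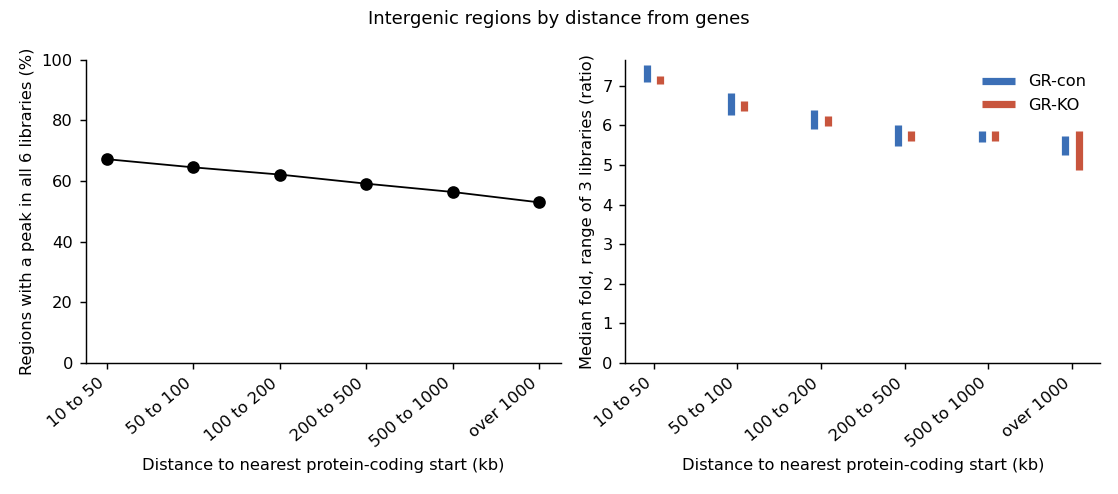
Intergenic regions are grouped by distance to the nearest protein-coding TSS (kb), with the share that had a peak in all 6 libraries on the left (percent) and, on the right, the range of the median fold enrichment (ratio) over the 3 libraries of each condition. The share falls from 67.2% at 10 to 50 kb to 53.0% beyond 1 Mb, and the ranges of the conditions overlap in every group.

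A peak in all 6 libraries was found in 10732 gene-desert regions (60.0%) and in only 2 libraries in 2326 (13.0%), and the median width was 433 bp. Their sequence was poorer in G and C than that of the whole set, with a median GC content of 47.8% in the 201 bp around the summit against 50.7% over all regions and 64.7% at promoters. The median number of CpG dinucleotides was 2, against 16 at promoters. Repeat sequence covered a mean of 10.4% of these windows and 10.5% of those of all regions. A lncRNA gene covered the midpoint of 17.2% of gene-desert regions (3081), against 8.89% of all regions, whereas 3.08% were within 1 kb of the start of a lncRNA, against 3.38% of all regions. By chromosome, gene-desert regions made up from 8.31% of the regions of chromosome 11 to 20.1% of those of chromosome 13, leaving aside chromosome Y, which had 1 of 18.

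The members were unevenly spread. They lay in 1561 gaps between neighbouring protein-coding genes, and 241 of these gaps held 50% of them. The gap between Rps24, a ribosomal protein gene, and Zmiz1, a transcriptional coactivator gene, held the most, with 104 regions in 962 kb on chromosome 14. The gap between Ubash3b and Sorl1, a sorting receptor of the endosome, held 103 in 803 kb on chromosome 9. Next came the gap between Tmem182 and Pou3f3, a POU-domain transcription factor of cortical development, with 96 regions in 1839 kb on chromosome 1.

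In the Rps24 to Zmiz1 gap 66.3% of regions had a peak in all 6 libraries, and in the Tmem182 to Pou3f3 gap 53.1% did. The gaps between Kif2a and Ndufaf2 (92 regions) and between Mki67 and Mgmt (90) followed, and none of these 5 held a region called as changed between the conditions. Over all regions 0.214% were called lower and 0.110% higher, so counts of calls in single gaps are not read as a result. Next by number, the gaps between Zfp608 and Gramd3 and between H2al1j and Bcor, on chromosome X, held 80 each, of which 0 and 2 were called, both lower in GR-KO. By density, the gap between Rgs6 and Dpf3 came first with 10 regions in 51.7 kb, or 193 per Mb, of which 3 had a peak in all 6 libraries. It was followed by those between Svil and Zfp438 (176 per Mb, 16 regions) and between Disc1 and Sipa1l2 (154 per Mb, 24 regions), among others. The gap downstream of Sox9, the transcription factor gene that marks astrocytes and their progenitors, was also dense, with 70 regions in 457 kb (153 per Mb), of which 48 had a peak in all 6 libraries. The gap between Usp25 and Gm11146 had a like density (71 regions, 150 per Mb), but only 24 of its regions had a peak in all 6 libraries and its median percentile of fold within the lists was 11.4, against 48.2 downstream of Sox9.

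To compare GR-KO with GR-con, the strongest fold of each region was ranked within its library, regions with no peak sharing the lowest rank, and each rank was converted to a normal score, on which 1 unit is 1 SD of the regions of that library. The scores of all 140360 regions were fitted with limma, with Benjamini-Hochberg adjustment over all of them, and a region was called at an adjusted p below 0.05. In GR-KO 63 gene-desert regions were lower and 47 were higher. That is 0.352% of members lower, where 0.214% of all regions were, and 0.263% of members higher, where 0.110% of all regions were. The shares are small in both sets, and no test set one against the other. The median score difference (GR-KO minus GR-con) was 0.02 in gene-desert regions and 0.02 over all regions.

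Few calls were left when a library was left out. Without GR-con 1, 2 or 3, or without GR-KO 1 or 2, limma called 0 members in either direction, while 1226 to 1397 members were lower and 1329 to 1492 were higher at an unadjusted p below 0.05. Without GR-KO 3 it called 3 lower and 4 higher (0.0174% and 0.0232% of members, 0.0162% and 0.0059% of all regions). With all libraries, 1363 members (7.63%) were lower and 1683 (9.42%) higher at an unadjusted p below 0.05, against 6.30% and 6.44% of all regions. Every GR-KO score lay below every GR-con score in 1474 members (8.25%; 7.84% of all regions) and above in 2361 members (13.2%; 12.1% of all regions). Of the called members 57.3% were lower (66.2% of all called regions). With ranks by −log10 p in place of fold, which called 247 members lower and 367 higher (1.38% and 2.05% of members, 1.12% and 1.05% of all regions), 40.2% were (51.7% of all called regions).

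**Figure D3:**
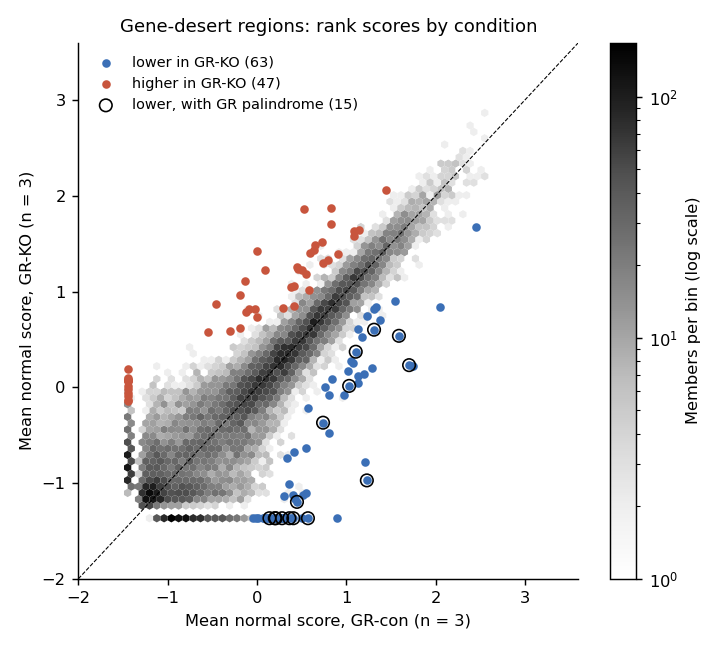
Each gene-desert region is placed by its mean normal score (ranks within library, no unit) in the 3 GR-con libraries and in the 3 GR-KO libraries, with the number of regions per bin in grey on a log scale and a dashed line of equality. The 63 regions lower in GR-KO lie below the line and the 47 higher regions above it, and circles mark the 15 lower regions that hold the GR palindrome, several of them on the lower edge, where no GR-KO library had a peak.

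Of the 4 lists of markers of other cells, 2 had summed promoter folds that did not overlap between the conditions. The summed promoter fold of the vascular markers was 27.1 to 30.7 in GR-con and 24.2 to 26.2 in GR-KO libraries, and that of the neuron markers 90.4 to 93.2 and 84.7 to 88.8. The median fold over the neuron markers overlapped, at 2.07 to 4.82 and 2.00 to 3.62, and that over the vascular markers did not, at 2.93 to 3.29 and 1.33 to 1.55. Fold is not on a scale shared between libraries. For astrocyte genes the sums were 205 to 222 and 219 to 228, for microglia markers 29.8 to 36.3 and 30.3 to 35.4, and for oligodendrocyte lineage markers 32.0 to 40.3 and 33.8 to 35.1. In bulk nuclei, fewer cells of a type and less accessibility per cell cannot be told apart. The part of these markers in the calls was not tested.

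The lower regions lost most of their rank. Their median percentile of fold within the lists went from 77.4 in GR-con to 16.8 in GR-KO, the median score difference was -1.36, and 22 of the 63 had no peak in any GR-KO library. The region between Prickle1, a planar cell polarity gene, and Adamts20, a secreted protease gene, had the smallest p, and its GR palindrome is shown above. It lies 417 kb from the Prickle1 TSS (chr15:94012998-94013772), and its fold was 22.4, 24.1 and 19.2 in GR-con 1, 2 and 3 and 7.22, 5.11 and 7.11 in GR-KO 1, 2 and 3. The lowest GR-con library was above the highest GR-KO library. The score difference was -1.47 (standard error 0.117, limma adjusted p = 0.0077).

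A second region on the same chromosome, 329 kb from Gxylt1 (chr15:92946137-92946804), showed the same order. Its fold was 13.1, 12.6 and 9.81 in GR-con and 3.79, 3.22 and 3.37 in GR-KO. The groups did not overlap, and the score difference was -1.11 (standard error 0.109, limma adjusted p = 0.0167). Between Pros1 and Epha3, an ephrin receptor gene, the region at chr16:63086368-63087026 had GR-con folds of 17.6, 15.3 and 17.6 and GR-KO folds of 5.06, 6.81 and 5.43, also without overlap. Its score difference was -1.06 (limma adjusted p = 0.0165), and it holds no GR palindrome. The region between Rnf219 and Rbm26 had GR-con folds of 20.5, 16.6 and 16.4 and GR-KO folds of 5.06, 6.81 and 6.74, with a score difference of -1.09 (limma adjusted p = 0.0182). Its lowest GR-con value lay above its highest GR-KO value.

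The region between Agbl1 and Ntrk3, the gene for a neurotrophin receptor, lies 913 kb from the nearest TSS. Its fold was 9.45, 12.4 and 6.59 in GR-con, and no GR-KO library had a peak there (score difference -1.88, standard error 0.195, limma adjusted p = 0.0183). Among regions with a peak in every GR-con and no GR-KO library, it ranked with a region between Map1b and Cartpt (fold 19.4, 15.2 and 6.93 in GR-con) and the region between Clnk and Hs3st1 whose sequence is shown above (13.2, 11.5 and 6.09). GR-con 3 was the lowest GR-con library in all 3. In total 254 members (1.42%) had a peak in every GR-con and no GR-KO library, against 1.19% of all regions, and 167 (0.934%) the reverse, against 0.628% of all regions. Leaving out each library in turn gave 397 to 515 and 262 to 373, since fewer libraries then have to meet the condition.

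The higher regions rose from the middle of the lists to near their top. Their median percentile of fold went from 58.1 in GR-con to 87.8 in GR-KO, the median score difference was 0.88, and 12 of the 47 had no peak in any GR-con library. The region between Ghitm and Nrg3, the gene for neuregulin 3, at chr14:37417560-37418413 had the smallest p. Its fold was 3.59, 3.39 and 3.21 in GR-con and 12.1, 13.4 and 13.7 in GR-KO. All GR-KO libraries were above all GR-con libraries, with a score difference of 1.33 (standard error 0.0966, limma adjusted p = 0.00748). A second region in the same gap (chr14:37355760-37356510) was also higher, with GR-con folds of 15.1, 17.1 and 14.7 and GR-KO folds of 21.5, 21.96 and 20.4. It was called with a score difference of 0.55 (limma adjusted p = 0.0349), and the gap holds 7 members in all. The other 5 had a negative difference, and the median over the 7 was -0.09.

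The region between Fam181b and Tenm4, an adhesion gene of the teneurin family, lies 1170 kb from the nearest TSS (chr7:95000874-95001338). Its fold was 4.54, 4.14 and 4.06 in GR-con and 13.7, 15.3 and 13.5 in GR-KO, without overlap (score difference 1.16, standard error 0.0844, limma adjusted p = 0.00748). The Rnf152 to Pign region started from a higher level, with GR-con folds of 11.5, 11.1 and 9.64 and GR-KO folds of 20.6, 20.5 and 18.6 (score difference 0.84, limma adjusted p = 0.0103). At the Kcnt2 to Cdc73 region the fold was 5.48, 7.15 and 4.73 in GR-con and 18.1, 17.8 and 15.5 in GR-KO (score difference 1.14, limma adjusted p = 0.0112). In these 3 regions, whose sequences are shown above, each GR-KO value was above each GR-con value. The same held between Gdap1 and Pi15, with GR-con folds of 11.3, 10.3 and 8.79 and GR-KO folds of 19.1, 18.5 and 19.2 (score difference 0.81, limma adjusted p = 0.0112).

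**Figure D4:**
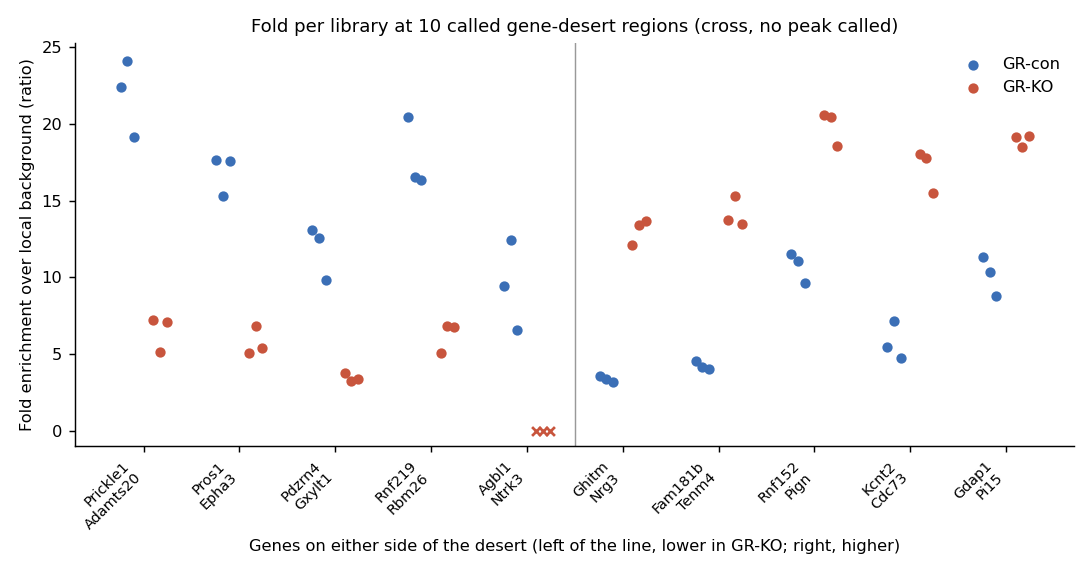
The fold enrichment over local background (ratio) is plotted for each library at the 5 lower and the 5 higher gene-desert regions of smallest p, named by the genes on either side, with GR-con in blue and GR-KO in red and crosses for libraries without a peak. The values of the conditions are apart in all 10 regions, and at Agbl1 to Ntrk3 no GR-KO library had a peak.

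With a peak in every GR-KO and no GR-con library, the 2 regions of highest rank lay between Ccdc54 and Cblb and between Pcdh7, a protocadherin gene, and G6pd2. Their fold in GR-KO was 7.58, 6.25 and 4.86 in the first region. It was 6.14, 5.68 and 4.68 in the second. The highest of these values, 7.58, was below the highest value of each of the 3 regions found only in GR-con.

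At the strongest gene-desert regions the score differences were within their standard errors. The 5 regions with a peak in all 6 libraries and the highest mean percentile lay between Gm31371 and Gm15319, Rnf144b and Id4, 4930583I09Rik and Tmem232, Bcl2l11 and Spdye4c, and Gm11361 and Sox4. The region between Rnf144b, 166 kb away, and Id4 had GR-con folds of 31.3, 34.4 and 32.8 and GR-KO folds of 35.5, 36.8 and 33.9, with 1 GR-con library inside the range of GR-KO. The score difference was 0.55 with a standard error of 0.859 (limma adjusted p = 0.85), and normal scores are stretched at the top of a list. At the region near Sox4 the fold was 33.7, 30.9 and 31.5 in GR-con and 33.7, 35.0 and 32.6 in GR-KO, which overlapped (score difference 0.34, standard error 0.578, limma adjusted p = 0.869). Bcl2l11 to Spdye4c had score difference 0.17 (standard error 0.716), and Gm31371 to Gm15319, the most GC-rich of the 5 with 16 CpG dinucleotides, had -0.34 (standard error 1.98).

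Motifs were searched for exact matches on both strands in the 201 bp around each summit. The GR palindrome was present in 151 gene-desert regions (0.845%), against 0.656% of all regions, and in 15 of the 63 lower members (23.8%; 21.3% of all lower regions) and 0 of the 47 higher members. The share of these 151 regions with a peak was 93.4%, 92.7% and 84.8% in GR-con 1, 2 and 3 and 58.3%, 53.6% and 57.6% in GR-KO 1, 2 and 3, with no overlap between the conditions. A region can meet the rule of 2 lists through GR-con alone, so this gap, and the counts over all 151 that follow, are given as a description. Over all gene-desert regions the shares were 82.3% to 84.1% in GR-con and 79.8% to 82.6% in GR-KO.

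The score difference was negative in 125 of the 151 (82.8%), against 47.0% of all gene-desert regions, and its median was -0.55. In 78 of them (51.7%) every GR-KO score was below every GR-con score, where 7.84% of all regions had that order. The 62 regions with the palindrome and a peak in all 6 libraries had the same direction, with a median difference of -0.27 and a negative difference in 46 (74.2%) against 45.9% of all members with a peak in all 6. The median fold of those 62 was 12.9, 12.7 and 9.74 in GR-con 1, 2 and 3 and 8.85, 7.83 and 7.74 in GR-KO 1, 2 and 3. Leaving out any 1 library left a negative difference in 80.7% to 86.8% of the palindrome regions, while the calls among them dropped from 15 to between 0 and 2. A GR palindrome was present in 26 of the 254 regions with a peak in GR-con only (10.2%) and in 0 of the 167 with a peak in GR-KO only. The GR half-site AGAACA, which overlaps the palindrome in 48 of the 66 gene-desert regions that hold both, was in 39.7% of lower members, 14.9% of higher members and 20.8% of all members (17.9% of all regions). A palindrome further from the summit than 100 bp was not counted, and within 50 bp of the summit it was present in 0.492% of members.

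Beyond Prickle1, Gxylt1 and Clnk, the called regions with the palindrome and the smallest p lay near Pik3r1 and Rad51ap2. The Pik3r1 to Cd180 region (Pik3r1 encodes the regulatory subunit of PI3 kinase) had GR-con folds of 22.9, 20.6 and 19.1 and GR-KO folds of 7.58, 8.52 and 11.8. The Rad51ap2 to Fam49a region had GR-con folds of 17.1, 15.7 and 12.6 and GR-KO folds of 6.32, 5.11 and 3.93. Neither overlapped between the conditions, with score differences of -1.05 (limma adjusted p = 0.0212) and -1.02 (limma adjusted p = 0.0263).

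**Figure D5:**
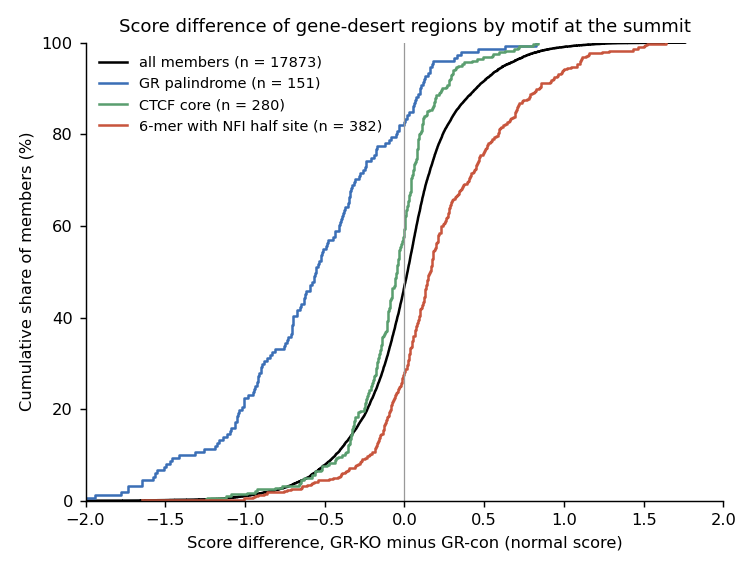
Cumulative shares (percent) of gene-desert regions by score difference (GR-KO minus GR-con, normal scores) are drawn for all 17873 members and for members with the GR palindrome (151), the CTCF core (280) or the 6-mer together with the NFI half-site (382) within 100 bp of the summit. The GR palindrome curve lies to the left, with 82.8% of regions below 0, and the curve of the 6-mer with the NFI half-site to the right, with 72.0% above 0.

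The higher members held another set of letters. The NFI half-site TTGGCA was in 28 of 47 higher members (59.6%), 22.2% of lower members and 27.2% of all gene-desert regions, which is itself above the 21.9% of all regions. The order of lower members and all members turned in the other windows, with 19.0% and 18.3% within 50 bp and 44.4% and 40.8% over whole regions. The 6-mer ACTGTA was in 40.4% of higher members, 1.59% of lower members and 8.07% of all members (7.95% of all regions). Both motifs were also frequent in the higher regions of the whole series, gene-desert ones included, with the NFI half-site in 42.9% and the 6-mer in 44.8% of these 154. Searched over whole regions, the 6-mer was in 61.7% of higher, 27.0% of lower and 20.4% of all members, so lower members were then above all members. The 6-mer and the NFI half-site were both in 382 members, and their hits shared bases in 12 of these. These 382 had a positive score difference in 72.0% and a median of 0.16. Of them 11 were called higher (2.88%, against 0.263% of all members and 0.110% of all regions). Only 1 was called lower, where 0.352% of all members and 0.214% of all regions were. The 6-mer was chosen for its frequency at higher sites of these same libraries, so these values are a description. With the NFI half-site alone, 55.8% of 4474 members were positive, with the 6-mer alone 64.0% of 1061, and with neither 50.4% of 11956. The share of the 382 regions with a peak was 79.3%, 75.4% and 72.8% in GR-con and 86.9%, 84.3% and 82.7% in GR-KO, without overlap and in the opposite order to the GR palindrome regions. A region can meet the rule of 2 lists through the condition in which it is high, so this order is a description. Of the 212 that had a peak in all 6 libraries, 28.8% had a negative score difference, against 45.9% of all members with a peak in all 6. The NFI palindrome, TTGGC and GCCAA with 5 bases between them, was in 13 members and 0 of the called ones.

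Other motifs are given by position class, without a test. The CTCF core, CC and AGGGGGC with 3 bases between them, was in 280 gene-desert regions (1.57%), against 3.15% of those at 10 to 100 kb and 2.41% of all regions. Those 280 were strong, with a peak in all 6 libraries in 76.8% (59.8% of members without it) and a median percentile of 68.4 (46.4 without). Of them 1 was called higher in GR-KO (0.357%, against 0.263% of all members and 0.110% of all regions). In the other direction 0 were called (0.352% of all members and 0.214% of all regions). The homeodomain motif TAATTA was in 9.70% of gene-desert regions and 6.24% of all regions, and the POU octamer ATGCAAAT, bound by factors such as Pou3f3, in 2.46% and 1.58%. Motifs of promoters were rare: the ETS motif CCGGAAG was in 0.817% of gene-desert regions against 13.4% of promoters, and the SP/KLF motif GGGGCGGGG in 0.537% against 17.7%. The AP-1 motif TGANTCA was in 7.36% of gene-desert regions and 6.49% of all regions. These are matches of letters in a window of fixed length and do not show that a factor was bound.

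Gene deserts next to transcription factor genes of brain development made up 5.30% of members. Of the 89 genes of this list, 60 were the nearest protein-coding gene to at least 1 gene-desert region, with 948 regions in all, of which 1 was lower and 2 were higher in GR-KO, where 0.214% of all regions were lower and 0.110% higher (median score difference 0.03, against 0.02 over all members). Sox9 had the largest number of them, 94, which reached out to 737660 bp from its TSS, with 58 that had a peak in all 6 libraries. Pou3f3 was nearest to 59, Sox2, a transcription factor gene of neural stem cells and astrocytes, to 56, and Id4 to 51, and none of these 260 regions was called.

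Meis1 and Zeb2 were the genes of this list with called regions. Near Meis1, a homeodomain factor gene, a region on the Etaa1 side had GR-con folds of 9.64, 11.7 and 7.95 and GR-KO folds of 15.9, 17.4 and 16.6 (score difference 0.63, limma adjusted p = 0.0349). On the other side of Meis1 a region had GR-con folds of 5.48, 4.70 and 4.56 and no peak in GR-KO (score difference -1.32, limma adjusted p = 0.0422). The direction thus differed between regions nearest to the same gene. Near Zeb2, a zinc-finger factor gene, a region at 1126 kb had GR-con folds of 19.5, 20.1 and 18.9 and GR-KO folds of 26.4, 24.03 and 24.03 (score difference 0.62, limma adjusted p = 0.0473).

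Adhesion, guidance and synapse-organising genes were the nearest genes to 777 members (74 of the 97 listed genes), of which 2 were lower and 5 higher, again beside 0.214% and 0.110% of all regions. Their median score difference was 0.04. By number of members, Adgrl2, which encodes the adhesion receptor latrophilin 2, came first with 46, followed by Epha4 (36), Efnb2 (33), which encodes ephrin B2, and Tenm4 (32). The called regions outside these were chosen for mention after their values were seen. The higher ones were nearest to Tenm4, Slitrk1, Pcdh7, Cdh8 and Cdh9. That these are adhesion genes follows from the choice of the list, to which 5 of the 47 higher members belong.

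The region near Slitrk1 had GR-con folds of 11.3, 11.1 and 6.59 and GR-KO folds of 23.6, 24.5 and 21.5 (score difference 1.33, limma adjusted p = 0.0165). The regions near Pcdh7, Cdh8 and Cdh9 had no GR-con peak, and their fold in GR-KO was between 4.51 and 7.19. Pcdh7 and Cdh8 were 1979 and 1051 kb away, so that 3 of the 5 lie more than 1 Mb from the nearest TSS. The lower ones were nearest to Cdh4, with GR-con folds of 28.0, 27.6 and 27.6 and GR-KO folds of 21.5, 21.01 and 22.3 (score difference -0.78, limma adjusted p = 0.0401), and to Epha4. The Epha4 region had GR-con folds of 11.7, 10.9 and 6.09 and a peak only in GR-KO 3, at 2.81 (score difference -1.63, limma adjusted p = 0.0421). The 355 members beyond 1 Mb held 5 of the higher calls (1.41%, against 0.263% of all members and 0.110% of all regions). They held 0 of the lower calls (0.352% of all members and 0.214% of all regions). The calls beyond 1 Mb outside the adhesion list were nearest to Zeb2 and Pik3c3, and 5 is too few to read a trend from.

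Glucocorticoid-inducible genes and Nr3c1, the targeted gene, formed a list of 24 genes with few gene-desert regions. Of these 24, 3 were nearest to any member, with 14 regions, 6 of which were nearest to Nr3c1. Limma called 0 of the 14, where 0.214% of all regions were lower and 0.110% higher. At an unadjusted p below 0.05, 2 of the 14 were lower and 0 higher, where 7.63% and 9.42% of all members were. The median score difference of the 14 was -0.21. It was -0.21 over the regions nearest to Nr3c1, -0.30 over those nearest to Klf9 and -0.12 over those nearest to Sgk1. All 5 regions nearest to Klf9, a Krüppel-like factor gene induced by glucocorticoids, had a negative difference, and so had all 6 nearest to Nr3c1 itself. The Klf9 region at chr19:23015401-23015832, 126 kb from the TSS, had GR-con folds of 10.6, 10.2 and 7.10 and GR-KO folds of 4.15, 4.92 and 5.43. Its values did not overlap, but it was not called (score difference -0.52, standard error 0.117, limma adjusted p = 0.108). The strongest of the regions nearest to Nr3c1 had GR-con folds of 20.9, 21.7 and 19.4 and GR-KO folds of 19.3, 19.8 and 22.3, which overlapped (score difference -0.01, limma adjusted p = 0.988). Sgk1, a kinase gene induced by glucocorticoids, was nearest to 3, of which 1 had a positive difference. None of the 14 holds the GR palindrome within 100 bp of its summit.

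Of the astrocyte genes, 5 were nearest to 137 members, most of them to Sox9 (94) and Gja1 (31), the gene for the gap junction protein connexin 43, with Slc1a3 (5), a glutamate transporter gene, and Gjb6 (4) next. At an unadjusted p below 0.05, 2 of the 137 were lower and 13 higher, where 7.63% and 9.42% of all members were. The 1 call among them, which was lower, was a region 377251 bp from Gja1 (chr10:56754125-56755036), where the fold was 19.1, 18.6 and 17.4 in GR-con and 13.9, 12.4 and 11.8 in GR-KO. The groups did not overlap (score difference -0.50, standard error 0.068, limma adjusted p = 0.0348). Neuron markers were nearest to 17 members, vascular markers to 33 (28 of them Cdh5, the gene for vascular endothelial cadherin, and 5 Kdr), oligodendrocyte lineage markers to 1 and microglia markers to 0. Limma called 0 of these and 1 of the 137 above, where 0.214% of all regions were lower and 0.110% higher. At an unadjusted p below 0.05, 0 of the neuron and 3 of the vascular regions were lower and 2 and 6 were higher.

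Called regions were spread over the gaps. The 110 calls lay in 104 gaps, 6 of which held 2 calls, and in 4 of these 6 both calls had the same direction. The gaps with 2 lower regions were those between H2al1j and Bcor, between Tcerg1l and Mapk1ip1 and between Clnk and Hs3st1. In the second of these, 19 members were found, of which 3 had a peak in every GR-con and no GR-KO library and 5 had a positive score difference (median -0.17). In the first, with 80 members, the 2 calls sat among regions with a median score difference of -0.01.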

How the data were processed

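ATAC-seq peaks of V1 astrocyte nuclei at P21 were analysed in 6 libraries, 3 GR-con and 3 GR-KO, grouped by their labels. The authors ran the ENCODE pipeline for ATAC-seq (automatic adapter detection, multimapping reads set to 0, peak p threshold 0.01) on mm10 and deposited peaks called in each library separately. The deposited columns used are the fold, a ratio over the local background, and the −log10 of the p-value and q-value at the summit. The score column that the authors deposited, a capped value, was not used. A fold compresses or stretches with the background of its library, so values were ranked within libraries. No read counts were used, so depth is unknown. 0 of the 1116429 deposited peaks end beyond a chromosome of GRCm38.p6.

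Regions were merged and placed with Python 3.11.15, numpy 2.4.6, pandas 2.3.3 and scipy 1.17.1 and GENCODE vM21 genes. Scores were compared with limma 3.58.1 (R 4.3.3) with a variance trend and no block, and the step was tested on simulated scores. The methods of the study name a count-based comparison, which the peak lists cannot give.

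The members and gene lists were chosen with earlier results of these data known. Regions named in the text are the 5 of smallest p in each direction, the 5 strongest with a peak in all 6 libraries, the 3 strongest found in a single condition, the gaps with most members and with most per Mb, the 4 genes nearest to most members per list, and up to 5 called regions with a GR palindrome. Regions and gaps outside this rule were named after their values were seen. Sequences are from the reference genome, and those on chromosome 18 are not shown. A few regions and gaps that meet the rule are not reported here.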

Additional observations from a re-analysis of the deposited data

How the results depend on the processing

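Leaving out each library in turn gave 17088 to 17325 gene-desert regions, 0 to 3 called lower and 0 to 4 called higher, and 0 to 4 of the 10 regions of smallest p were still called. It gave 397 to 515 regions with a peak in GR-con only and 262 to 373 with a peak in GR-KO only, where fewer libraries have to meet the condition. The difference in the share of regions with a peak was then -11.3 to -11.1 percentage points against promoters and -2.60 to -2.47 against intergenic regions at 10 to 100 kb. Same-numbered libraries hardly deviated together (correlations of deviations 0.0332, -0.00177 and 0.0270). GR-con 1 and GR-con 3 correlated best with their own number, and GR-con 2 did not. The correlations of all library pairs lay between -0.0312 and 0.0332, and the numbers were not taken as pairs. With a replicate block, limma called 0 members lower, 0 higher and 0 of the 10, while 1355 and 1649 members had an unadjusted p below 0.05. Ranking by −log10 p gave 247 lower and 367 higher. A fit without the variance trend gave 180 and 150 (1.01% and 0.839% of members, 0.727% and 0.511% of all regions). An adjusted p below 0.01 left 1 member lower and 2 higher, beside 8 and 5 of all regions, with 3 of the 10 called. A distance of 200 kb kept 9899 regions, with 41 lower (0.414%) and 28 higher (0.283%), where 0.214% and 0.110% of all regions were. Of the 9899, 144 had a peak in GR-con only and 103 in GR-KO only, where 1.19% and 0.628% of all regions had. At 50 kb the difference in share against genic distal regions was 1.19 percentage points. Counting motifs within 50 bp gave the GR palindrome in 0.492% of members and the 6-mer in 23.4% of higher members. Over whole regions these were 1.48% and 61.7%, and the CTCF core was in 1.78% of members. The cause of these changes was not tested. Requiring a peak in all 6 libraries left 10732 members, with 48 called lower (0.447%) and 55 higher (0.512%). Of all regions with such peaks, 239 were lower (0.265%) and 180 higher (0.199%). Of the called members, 17 named regions were followed through 18 to 22 alternatives each, those in which the region was still a member. All 356 score differences had the sign of the main value, and 131 lost the call, 3 of them with windows around summits and the others with a replicate block, without a library or at 0.01. Counts of regions, of calls and of regions with a peak in a single condition stayed within 1.5 times the main values for the q-value limit of 0.01, equal list lengths, 3 or more lists, windows around summits, autosomes, regions up to 2 kb, the start of every transcript, members away from lncRNA genes and, chosen after seeing the data, members over 100 kb from every gene body. Depth is unknown, and the absence of a peak in a list does not show closed chromatin.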
